A study of Mus musculus with 6 samples.

Results

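Lysosomes are acidic organelles in which hydrolases break down protein, glycan and lipid, and autophagy delivers cytoplasm, organelles and parts of the endoplasmic reticulum (ER) to them. Most soluble hydrolases and lysosomal membrane proteins are N-glycoproteins that fold in the ER, where calreticulin, a lectin chaperone encoded by Calr, assists glycoproteins. The transcription factor TFEB raises many lysosomal and autophagy genes by binding a motif called the CLEAR element, and autophagy receptors on the ER can turn over excess ER. The genes described here are 36 lysosomal and autophagy genes, listed by symbol among the 55291 symbols of the deposited table. All 36 averaged 10 normalised counts or more across the 6 libraries, as did 13199 genes in all.

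RNA was sequenced from LLC (Lewis lung carcinoma), a lung cancer line of the mouse. The cells had received plasmids for Cas9 and a guide RNA against Calr (Calr KO, n = 3) or a control guide (control, genotype label WT, n = 3). Both groups were cultured for 10 days after plasmid delivery, seeded in 3 wells each and collected 48 hours later, without further treatment. The design text describes a single transfected population per group and names no clones, so p-values measure the spread between wells and not between independent knockouts. The libraries summed to between 14040692 and 14099985 normalised counts, and all carry the same batch label. Calr mRNA was 10653 ± 426 normalised counts in the controls and 4379 ± 141 with the Calr guide (SD, n = 3; log2 change -1.28, limma adjusted p = 7.9e-07), so transcript remained in every Calr KO library. The lung epithelial genes Nkx2-1, Sftpc, Sftpa1, Scgb1a1 and Epcam were listed at 0 in all libraries, whereas Krt8 was between 4375 and 4907. Macrophages are rich in lysosomes; of 13 macrophage markers 2 averaged 10 or more, Adgre1, C1qa, C1qb and Tyrobp were at 0, and the list summed to 25.2 to 46.1 normalised counts in Calr KO and 31.3 to 65.6 in control libraries.

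No lysosomal or autophagy gene passed the test between Calr KO and control cells. By limma, 0 of 36 members had an adjusted p under 0.05, with a smallest adjusted p of 0.392, for Lamp1; voom weights also gave 0. Over all tested genes 37 passed, or 0.280% (0.197% higher and 0.0833% lower), so a count of 0 among 36 lies near the background and is not a result particular to these genes. An unadjusted p under 0.05 was found for 5 members, Lamp1 and Gusb on the higher side and Atg7, Mcoln1 and Ulk1 on the lower side, and for 8.88% of all tested genes (4.60% higher and 4.28% lower). On leaving out each library in turn the largest unadjusted p was 0.048 for Lamp1, 0.056 for Gusb, 0.089 for Atg7, 0.094 for Mcoln1 and 0.13 for Ulk1. The median log2 change was -0.0062 over the members and 0.00036 over all tested genes, and the median size of change was 0.05 and 0.09. Members are abundant, and at a mean of at least 500 normalised counts the median size was 0.04 over 29 members and 0.06 over 5797 tested genes. Together the 36 transcripts made up 0.623%, 0.619% and 0.618% of the normalised counts in the Calr KO libraries and 0.627%, 0.619% and 0.615% in the controls, and the groups overlapped. In bulk RNA, fewer cells of a type and less RNA per cell cannot be told apart.

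The intervals show how much difference the data allow. The 95% interval of the change lay within 1.1-fold in either direction for 12 of 36 members, within 1.25-fold for 30 and within 1.5-fold for 34. It reached further for Tfeb and Atg7, the members with the lowest counts, and lay within 2-fold for all 36. These intervals are for single genes, without adjustment over the list. Over all tested genes the interval lay within 1.1-fold for 7.27%, within 1.25-fold for 48.2%, within 1.5-fold for 74.4% and within 2-fold for 89.4%. These shares are not matched for level: the median level was 1285 normalised counts over the members and 392 over all tested genes.

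In 14 of 36 members (38.9%) the Calr KO and control values did not overlap, 3 of them higher in Calr KO cells (Ctsz, Gusb and Lamp1) and 11 lower. The background was 14.8% of all tested genes, 7.57% higher and 7.28% lower. Members are abundant, and at a mean level of 500 normalised counts or more the groups did not overlap in 17.4% of tested genes (8.63% higher and 8.76% lower) and in 10 of 29 members, 3 higher and 7 lower. None of the 14 passed the adjusted test, and the difference between the members' share and the background was not tested.

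Many genes controlled by TFEB carry the CLEAR element, whose core TCACGTGA contains the E-box CACGTG. Only exact letters were counted, so a promoter without them is not shown to be free of TFEB control. RefSeq promoters (GRCm38.p6, 250 bases before to 50 after the start site) were at hand for 30 of the 36 members. The motifs were searched on both strands. For 3 members more than 1 promoter was listed, and a motif in any of them was counted. The CLEAR core was found in 5 of the 30 (16.7%), in 16 of 129 other lysosome and autophagy genes (12.4%) and in 1.12% of 27025 genes with a promoter. The E-box was found in 12 of 30 members, 24.8% of the other pathway genes and 8.09% of all. The 5 members with the core are shown because they are the members of the set that carry the letters of this element; each stretch runs 5′ to 3′ on the gene's strand, with the core nearest the start site in capitals.
Ctsa (chr2:164833761-164833800, plus strand, core starting at base 5 of the transcript): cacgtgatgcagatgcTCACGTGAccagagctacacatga
Ctsd (chr7:142387903-142387942, minus strand, core starting at -99): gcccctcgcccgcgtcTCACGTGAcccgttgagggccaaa
Gla (chrX:134601177-134601216, minus strand, core starting at -195): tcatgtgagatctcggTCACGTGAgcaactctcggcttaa
Igf2r (chr17:12769691-12769730, minus strand, core starting at -8): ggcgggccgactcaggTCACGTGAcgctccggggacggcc
Mcoln1 (chr8:3500457-3500496, plus strand, core starting at -46): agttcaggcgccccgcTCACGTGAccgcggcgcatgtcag

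Of these 5 genes, Gla and Mcoln1 had every Calr KO value below every control value, and Ctsa, Ctsd and Igf2r overlapped. Groups without overlap were also found in the other promoter classes, in 3 of 7 members that had an E-box but not the core (1 higher and 2 lower) and 7 of 18 without an E-box (2 higher and 5 lower); the share of all tested genes was 14.8%. The median log2 change of the 5 genes with the core was -0.02 (range -0.19 to 0.0064). It was 0.01 for the 7 members with an E-box but not the core and -0.00039 for the 18 members whose promoter held no E-box. These are descriptions, with no test. The E-box of Atg7, among the 7, was in a RefSeq promoter at chr6:114670846-114671145, inside the gene, which starts at 114643097 in GENCODE. Among the members the promoter of Lamp1 held 4 E-boxes, the most of the 12, and is shown with them in capitals because Lamp1 had the smallest p-value of the set.
Lamp1 (chr8:13158911-13159210, plus strand): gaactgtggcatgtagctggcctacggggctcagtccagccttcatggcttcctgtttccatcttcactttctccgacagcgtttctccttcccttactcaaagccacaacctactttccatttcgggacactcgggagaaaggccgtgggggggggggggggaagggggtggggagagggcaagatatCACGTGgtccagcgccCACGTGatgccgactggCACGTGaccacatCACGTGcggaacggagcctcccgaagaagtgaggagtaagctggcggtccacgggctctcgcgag

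Elements of the ER stress response were searched in the same promoters. The ER stress element (CCAAT and CCACG with 9 bases between them) was found in 0 of 30 members and 0.137% of all genes, TGACGTGG, an element bound by ATF6 and XBP1, in 0 of 30 and 0.714%, and TGATGCAA, of the type bound by ATF4 with C/EBP factors, in 0 of 30 and 1.03%. That says only that these letters are not in these windows.

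Levels of the members spanned from 38.3 (Tfeb) to 2786 (Sqstm1) normalised counts per kb of the principal transcript, as averages over the 6 libraries. Sqstm1, Psap, Lamp1, Ctsl, Grn, Ctsz, Ctsd and Ctsb were the 8 highest, each above the 95th percentile of 12974 tested genes with a length. The order among them depends on the length used: with the union of exons Psap was first and Sqstm1 sixth, although the same 8 genes led. For Ctsl both lengths were 6168 bases, so this comparison does not test its place. Where principal transcripts tied the longest was taken, and a gene read mainly from a shorter transcript would stand higher. The lowest members were Tfeb, Atg7, Ulk1 and Gla, a transcription factor, 2 autophagy enzymes and a glycosidase, while 4 of the 8 highest encode proteases. Levels below are in normalised counts, which are compared within a gene.

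**Figure D1:**
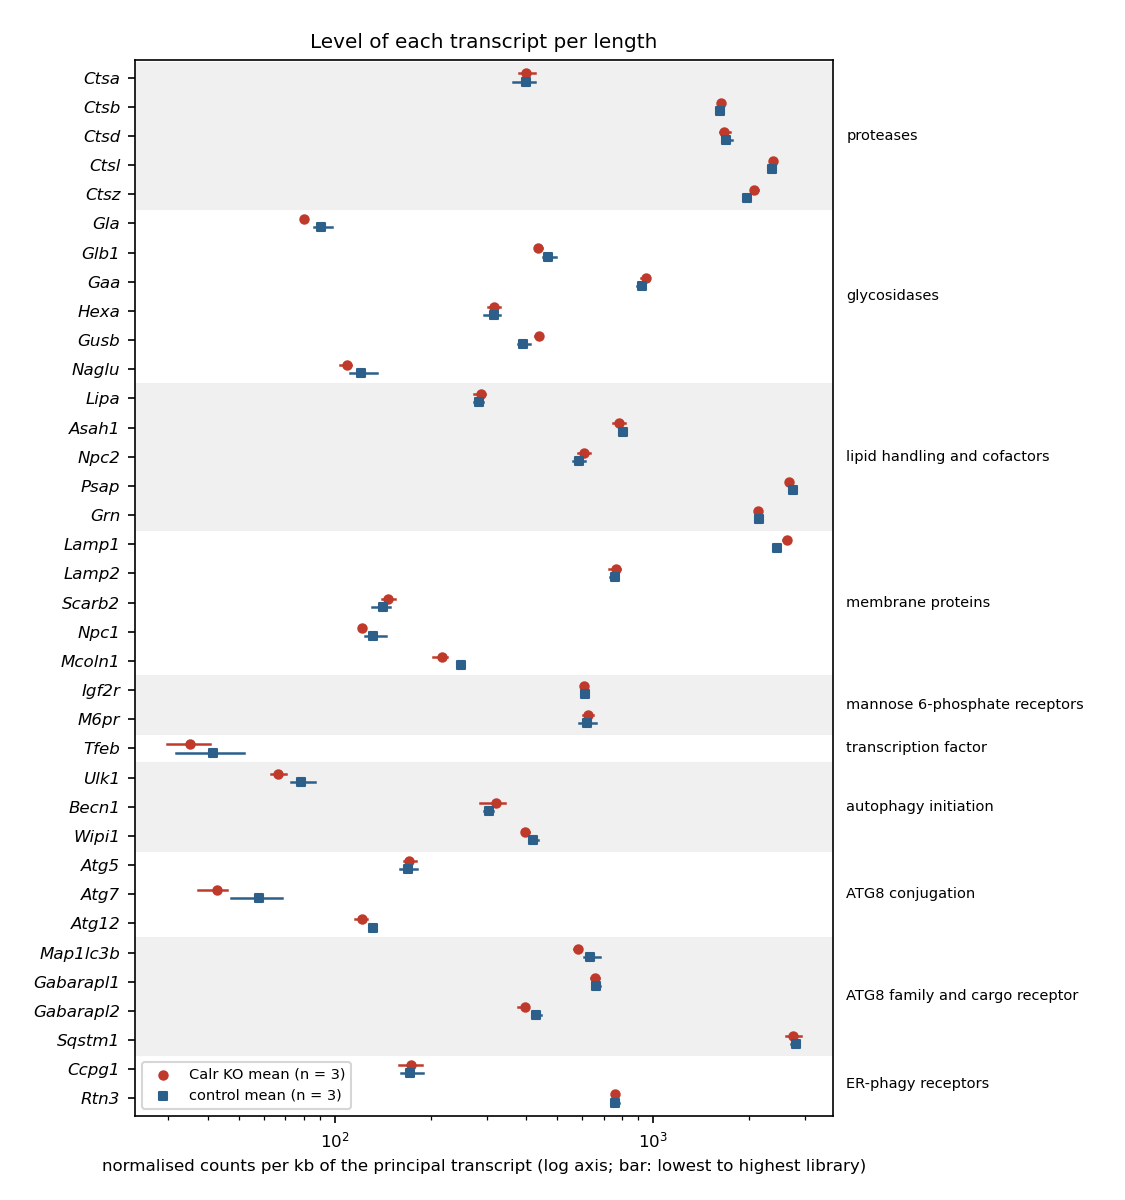
Mean level of the 36 transcripts in Calr KO (red circles) and control cells (blue squares), in normalised counts per kb of the principal transcript on a log axis; bars run from the lowest to the highest of 3 libraries. Tfeb is lowest, Sqstm1 highest, and in most genes the symbols of the 2 groups lie close together.

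Among the proteases, the groups overlapped in 4 of 5. Ctsl, which encodes the endopeptidase cathepsin L and had the highest counts of the set, held 14604, 14855 and 14796 normalised counts in the Calr KO libraries and 14652, 14678 and 14396 in the controls. Its log2 change was 0.02 (95% interval -0.03 to 0.07, limma adjusted p = 0.866), and the sign turned with quantile normalisation (-0.02). The cysteine protease gene Ctsb had 7764 ± 123 against 7696 ± 149 (SD, n = 3), and Ctsd, the aspartic protease cathepsin D, 3556 ± 129 against 3609 ± 152. Ctsa, whose product also protects other lysosomal glycosidases, had 1459 ± 87.7 against 1454 ± 120.

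Ctsz, a carboxypeptidase gene, was the protease whose groups did not overlap. It held 3077, 2954 and 2960 normalised counts in Calr KO and 2863, 2844 and 2828 in control libraries, with the lowest Calr KO value above the highest control. The log2 change was 0.07 (SE 0.04, 95% interval -0.01 to 0.16, limma adjusted p = 0.613). Exons of Ctsa share 495 bases with Pltp on the opposite strand and those of Ctsb share 774 with Fdft1; the sources used here do not say whether counting used strand.

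Glycosidases trim sugar chains from glycoproteins, glycolipids and glycosaminoglycans, and the 6 members lay on both sides of 0. Gusb (beta-glucuronidase, chromosome 5, positions 129989011 to 130003049 on GRCm38, minus strand) held 1195, 1194 and 1147 normalised counts in Calr KO and 1013, 1105 and 1039 in control libraries. All Calr KO values were above all controls, with a log2 change of 0.16 (95% interval 0.04 to 0.29, unadjusted p = 0.016, limma adjusted p = 0.454). Without each library in turn its log2 change was between 0.14 and 0.20.

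Gla, the alpha-galactosidase deficient in Fabry disease, held 258, 251 and 254 normalised counts in Calr KO and 276, 311 and 272 in control libraries (log2 change -0.17, limma adjusted p = 0.662). Glb1, the beta-galactosidase also read out as a senescence marker, held 1031, 1075 and 1027 against 1190, 1079 and 1096 (log2 change -0.10, adjusted p = 0.676). In both genes the groups did not overlap, but for Glb1 the highest Calr KO and the lowest control value lay next to each other. The log2 change of Glb1 was -0.06 without control replicate 1, the highest control, and that of Gla was -0.11 without control replicate 2, likewise the highest. Exons of Glb1 share 165 bases with Tmppe on the same strand. Naglu, an enzyme of heparan sulfate breakdown, overlapped at 279 ± 11.5 against 310 ± 32.8, as did Gaa, the glycogen-degrading alpha-glucosidase, at 3455 ± 112 against 3362 ± 101, and Hexa, a subunit of hexosaminidase, at 633 ± 27.4 against 631 ± 37.5 (SD, n = 3).

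The genes for lipid breakdown and hydrolase cofactors differed little. Psap, the precursor of the saposins that present sphingolipids to hydrolases, held 7170, 7253 and 6952 normalised counts in Calr KO and 7398, 7309 and 7271 in control libraries. Its groups did not overlap, with a log2 change of -0.04 (95% interval -0.11 to 0.02, limma adjusted p = 0.753), or -0.02 without Calr KO replicate 3. The progranulin gene Grn had 5003 ± 99.0 against 5023 ± 124, and the ceramidase gene Asah1 2170 ± 94.4 against 2227 ± 5.95. Npc2, which hands cholesterol to the membrane protein NPC1, had 2002 ± 88.9 against 1928 ± 84.7, and the acid lipase gene Lipa 856 ± 37.6 against 841 ± 25.4. Over the 16 soluble lysosomal proteins of these groups, 9 changes were above 0 and 7 below, with a median of 0.0057.

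**Figure D2:**
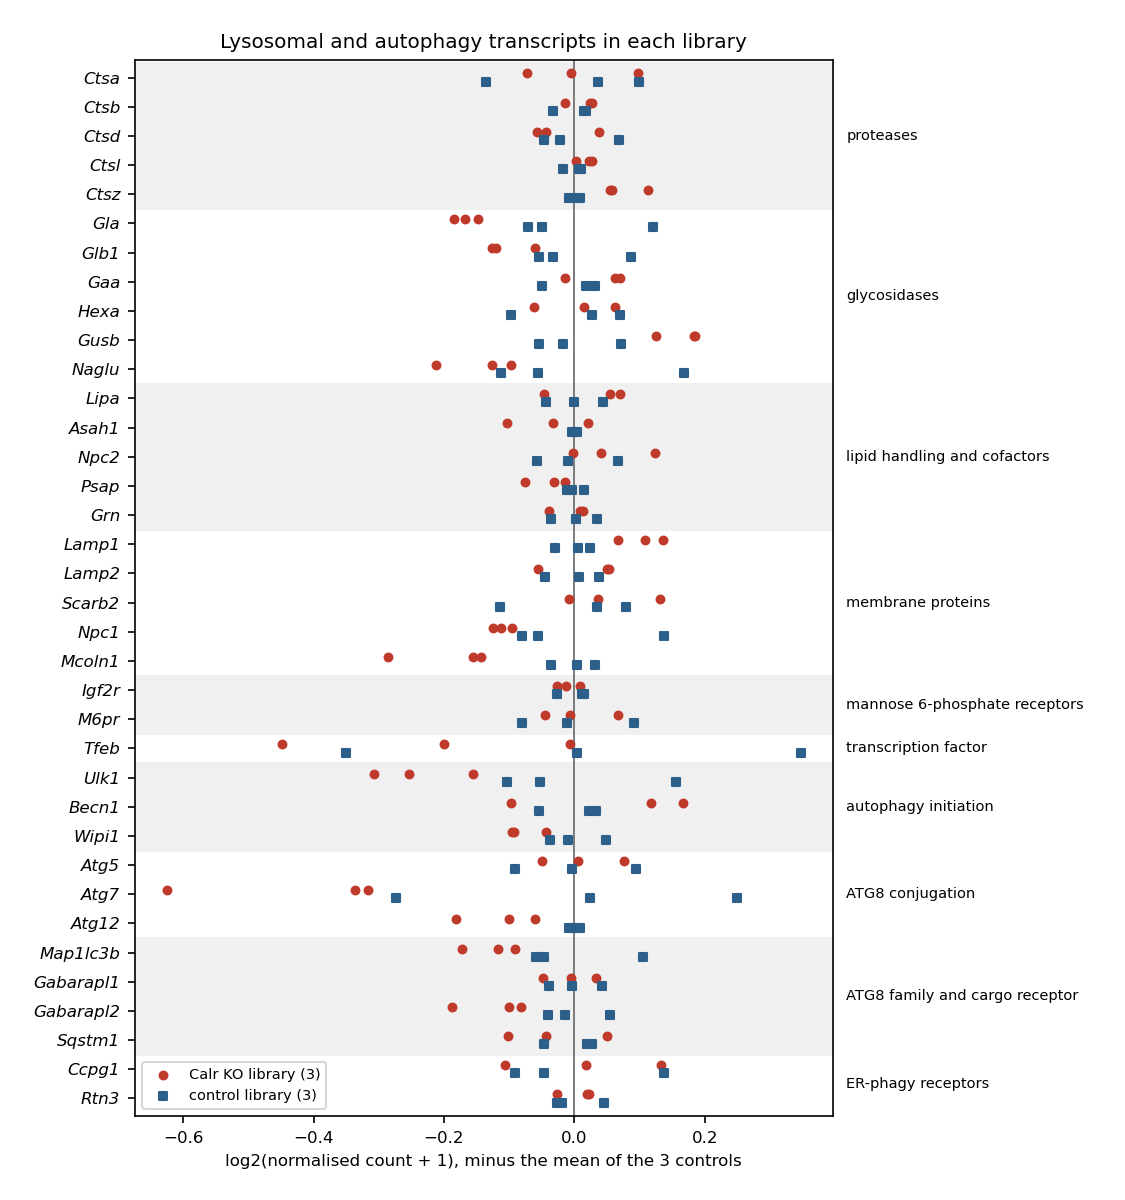
Each of the 6 libraries (red circles Calr KO, blue squares control) as log2(normalised count + 1) minus the mean of the 3 controls, for the 36 members grouped by role. Calr KO circles lie to the right of all control squares in Ctsz, Gusb and Lamp1 and to the left in 11 genes, among them Mcoln1, Ulk1, Atg7 and Atg12.

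Membrane proteins of the lysosome held both the gene with the smallest p-value of the set and a calcium channel on the lower side. Lamp1 (chromosome 8, positions 13159161 to 13175338 on GRCm38, plus strand), which encodes a heavily glycosylated protein lining the membrane, held 5998, 5717 and 5883 normalised counts in Calr KO and 5552, 5480 and 5350 in control libraries. All Calr KO values were above all controls, by 7.42% on average (log2 change 0.10, 95% interval 0.03 to 0.18, unadjusted p = 0.011, limma adjusted p = 0.392). Its log2 change was 0.09 to 0.12 without each library in turn. The related Lamp2, whose isoforms the gene totals do not separate, overlapped at 2763 ± 117 against 2731 ± 78.4 (log2 change 0.02, 95% interval -0.09 to 0.12).

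Mcoln1 (chromosome 8, positions 3500457 to 3515232, plus strand) encodes TRPML1, the channel that releases calcium from lysosomes. It held 466, 461 and 421 normalised counts in Calr KO and 501, 526 and 516 in control libraries, so all Calr KO values were lower. The log2 change was -0.19 (95% interval -0.36 to -0.03, unadjusted p = 0.027, limma adjusted p = 0.501). The cholesterol exporter gene Npc1 held 631, 644 and 636 in Calr KO and 756, 661 and 650 in control libraries. Its groups also did not overlap, but control replicate 1 stood above the other controls, and the log2 change was -0.11 with that library and -0.04 without it. Exons of Npc1 share 192 bases with Rmc1 on the opposite strand. Scarb2, which encodes LIMP-2, the receptor that carries glucocerebrosidase to lysosomes, overlapped at 690 ± 34.2 against 665 ± 46.2.

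The mannose 6-phosphate receptors sort soluble hydrolases from the Golgi to endosomes. Igf2r, the large receptor, held 5346, 5481 and 5397 normalised counts in Calr KO and 5344, 5491 and 5504 in control libraries. The ranges nearly coincided, and the log2 change was -0.01 (95% interval -0.08 to 0.06), among the narrowest intervals of the set. M6pr, the small receptor, had 1581 ± 62.1 against 1577 ± 94.8 (log2 change 0.0051, 95% interval -0.13 to 0.14).

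Tfeb itself was the scarcest member and the least precisely measured. Its Calr KO libraries held 81.0, 68.0 and 92.8 normalised counts and the controls 93.5, 119 and 72.9. The groups overlapped, and the log2 change of -0.22 had an interval from -0.69 to 0.25 (limma adjusted p = 0.809), which includes levels more than 1.5-fold lower. The change depended on single libraries: leaving out control replicate 2 gave -0.05, control replicate 3 gave -0.39 and Calr KO replicate 2 gave -0.10. TFEB is controlled largely by its phosphorylation and location, which were not measured.

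In autophagy, the ULK1 kinase and the Beclin 1 lipid kinase complex start the autophagosome and WIPI proteins read the lipid it makes. Ulk1 (chromosome 5, positions 110784488 to 110810097, minus strand) held 365, 341 and 328 normalised counts in Calr KO and 453, 392 and 379 in control libraries. The highest Calr KO value lay below the lowest control, with a log2 change of -0.24 (95% interval -0.45 to -0.03, unadjusted p = 0.032, limma adjusted p = 0.510). Without each library in turn it was between -0.29 and -0.16. Wipi1 held 805, 834 and 806 against 889, 853 and 837, also without overlap (log2 change -0.08, adjusted p = 0.762). Becn1 overlapped, at 1399 ± 132 against 1337 ± 44.1.

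The conjugation machinery attaches ATG8 proteins such as LC3 to membrane lipid. Atg7 (chromosome 6, positions 114643097 to 114860614, plus strand), the E1-like enzyme of the pathway, held 170, 173 and 139 normalised counts in Calr KO and 219, 178 and 256 in control libraries. This was the widest difference among the 36, a log2 change of -0.43 (SE 0.15, 95% interval -0.77 to -0.08, unadjusted p = 0.021, limma adjusted p = 0.476). The highest Calr KO and lowest control values were close, and the change was between -0.56 and -0.30 without each library in turn. Atg12, the ubiquitin-like partner of ATG5, held 584, 552 and 600 against 630, 626 and 623, without overlap (log2 change -0.11, adjusted p = 0.675). Atg5 overlapped, at 404 ± 17.9 against 401 ± 25.9.

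Among the ATG8 genes and the cargo receptor, all 4 changes were below 0, although those of Gabarapl1 and Sqstm1 turned above it on leaving out Calr KO replicate 1 or control replicate 1 (Gabarapl1) and Calr KO replicate 2 (Sqstm1). Map1lc3b, which encodes LC3B, the usual marker of autophagosomes, held 1480, 1425 and 1507 normalised counts in Calr KO and 1555, 1727 and 1540 in control libraries (log2 change -0.13, limma adjusted p = 0.576). Gabarapl2 held 672, 633 and 681 against 748, 713 and 701 (log2 change -0.12, adjusted p = 0.639). In both genes all Calr KO values were below all controls, but without control replicate 2, the highest, the log2 change of Map1lc3b was -0.07. The third family member, Gabarapl1, overlapped at 1199 ± 33.6 against 1205 ± 33.9 (log2 change -0.0067, 95% interval -0.12 to 0.11).

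Sqstm1 encodes p62, which brings ubiquitinated cargo to autophagosomes and is itself degraded there. It held 5936, 5345 and 5564 normalised counts in Calr KO and 5814, 5549 and 5845 in control libraries. The groups overlapped, with a log2 change of -0.03 (95% interval -0.13 to 0.07, limma adjusted p = 0.877). Exons of Sqstm1 share 580 bases with Mrnip on the opposite strand. The conversion of LC3, the p62 protein level and autophagic flux were not measured.

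Receptors that select ER for autophagy link this group to the ER. Ccpg1, a membrane receptor known to be induced in ER stress, held 503, 548 and 594 normalised counts in Calr KO and 508, 525 and 596 in control libraries. Rtn3, the receptor for ER tubules, held 2119, 2052 and 2123 against 2158, 2062 and 2052. In both genes the groups overlapped, with log2 changes of 0.01 (95% interval -0.19 to 0.22) and 0.0052 (95% interval -0.09 to 0.10). The value of Ccpg1 is uncertain, since its exons share 1773 bases with Pigb on the opposite strand, a gene with a mean of 356 normalised counts. Exons of Ccpg1 also share 3213 bases with Gm44503 on the same strand, which had a mean of 0.51. Hspa5, which encodes the ER chaperone BiP and was chosen after its values were seen, rose by 0.50 on the log2 scale (limma adjusted p = 0.0014). The difference between Hspa5 and these receptors was not tested. It is a single gene from outside the lists used here, and whether an ER stress response was present was not tested.

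Over the 12 autophagy and ER-phagy members the median log2 change was -0.05, with 8 below 0, against 6582 of all 13199 tested genes. Of the 12, 6 were lower without overlap (against 7.28% of all tested genes) and 0 higher without overlap (against 7.57%). Over the 24 lysosomal members the median was 0.0050, with 11 below 0, and 8 did not overlap (33.3% of the 24, against 14.8% of all tested genes), 5 lower and 3 higher. No test was made between the 2 groups of genes. Mitochondrial transcripts took 2.80%, 2.78% and 2.78% of the control libraries and 2.89%, 2.90% and 2.97% of the Calr KO libraries; its part in these values was not tested.

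**Figure D3:**
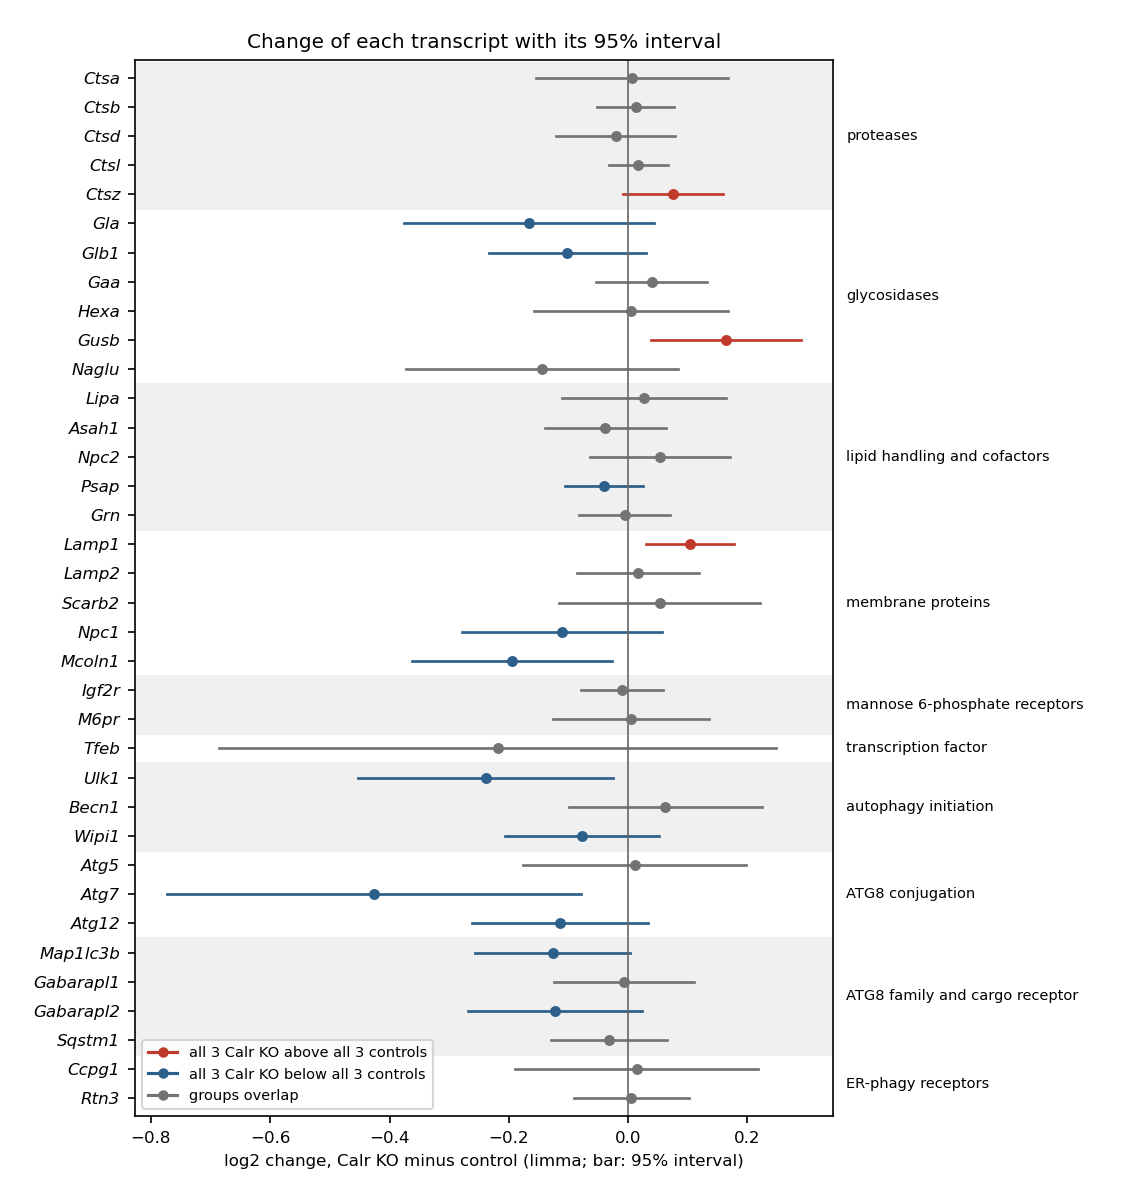
Log2 change (Calr KO minus control, limma) of the 36 members with 95% intervals, coloured by whether the 3 Calr KO values were all above (red), all below (blue) or overlapping with the 3 controls (grey). The intervals of Lamp1 and Gusb lie above 0, those of Mcoln1, Ulk1 and Atg7 below 0, and the other 31 span it.

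Other genes of the pathways were taken from wider lists. Of these, 147 of 154 such genes were tested, and by limma 0 passed over all genes tested, while 7 had an unadjusted p under 0.05 (2 higher and 5 lower). The groups did not overlap in 20 of them (13.6%), 8 higher and 12 lower, close to the background of 14.8%. Their median log2 change was -0.01.

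Acidification was represented by 18 genes, mainly of the V-ATPase, the proton pump of the lysosome, with a median of -0.04; 5 of the 18 did not overlap between the groups (27.8%, against 14.8% of all tested genes), 2 higher and 3 lower. Subunits of the pump lay on opposite sides: Atp6v1d, of the cytosolic sector, had 1076 ± 82.1 in Calr KO against 1222 ± 14.1 in control cells (log2 change -0.19, limma adjusted p = 0.460), and Atp6v0c, of the membrane ring, 2787 ± 51.2 against 2592 ± 91.6 (log2 change 0.11, adjusted p = 0.510). In both the groups did not overlap, and without Calr KO replicate 2 the log2 change of Atp6v1d was -0.12. Among 26 other hydrolases and cofactors and 14 other membrane proteins no unadjusted p was under 0.05, and the groups did not overlap in 2 of the 26 (7.69%, both lower) and 2 of the 14 (14.3%, both higher); the most abundant were the sulfatase Arsa, at 2780 ± 80.6 against 2777 ± 79.2, and the tetraspanin Cd63, at 6092 ± 155 against 6019 ± 232. Of 22 sorting genes 4 did not overlap (18.2%), 1 higher and 3 lower, and Ap3d1, a subunit of the AP-3 adaptor, had 1599 ± 42.6 against 1730 ± 51.0 (log2 change -0.11, adjusted p = 0.534).

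Among other autophagy genes, Nbr1, a cargo receptor related to p62, held 690, 575 and 684 normalised counts in Calr KO and 569, 565 and 465 in control libraries. All Calr KO values were above all controls, with a log2 change of 0.29 (limma adjusted p = 0.479), or 0.19 without control replicate 3. Of the 11 genes for cargo receptors and fusion 2 did not overlap (18.2%), both higher. Atg4c, a protease that processes ATG8 proteins, was on the lower side at 218 ± 17.5 against 279 ± 45.9 (log2 change -0.34, adjusted p = 0.509), and was the 1 of 9 conjugation and ATG8 genes without overlap (11.1%). Of the 18 other initiation genes none had an unadjusted p under 0.05 and 1 did not overlap (5.56%), and Vmp1, the most abundant, had 1872 ± 65.9 against 1759 ± 153. The 6 other ER-phagy receptors had a median of -0.01 and 1 without overlap (16.7%), and the most abundant, Sec62, had 1920 ± 89.8 against 2046 ± 120 (log2 change -0.09, adjusted p = 0.713). Without control replicate 3 the log2 change of Sec62 was -0.05.

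Tfe3, the paralogue of Tfeb that binds the same element, had the smallest p-value of all lysosome and autophagy genes examined. It held 604, 692 and 624 normalised counts in Calr KO and 835, 759 and 719 in control libraries. All Calr KO values were below all controls, with a log2 change of -0.27 (95% interval -0.45 to -0.09, unadjusted p = 0.0086, limma adjusted p = 0.364). Its unadjusted p was at most 0.037 without each library in turn. A list of 23 tested genes covered the TFEB family, mTORC1, the kinase complex that keeps TFEB in the cytoplasm, and regulators of mTORC1. Of these, 18 had a change below 0, against 6582 of all 13199 tested genes, and this difference was not tested. The median of the list was -0.04, 0 passed over all genes, and 2 did not overlap between the groups (8.70%, under the background of 14.8%). Ddit4, a stress-induced inhibitor of mTORC1, had 2398 ± 261 against 2735 ± 126 (log2 change -0.19, adjusted p = 0.498, or -0.13 without Calr KO replicate 3), and its groups overlapped.

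**Figure D4:**
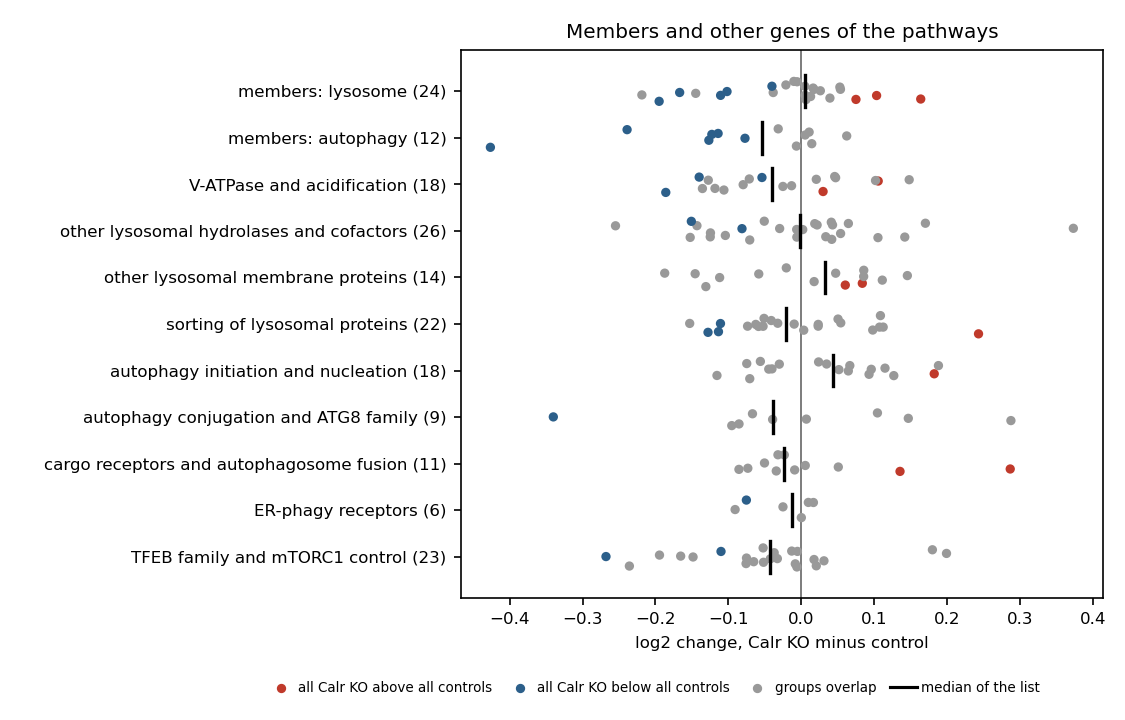
Log2 change of the members and of the other pathway genes by list, with the number tested in parentheses; each point is a gene, coloured by whether all Calr KO values were above (red) or below (blue) all controls, and black bars are medians. List medians lie between -0.05 and 0.04, and Atg7 at -0.43 is the lowest point.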

How the data were processed

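The authors deposited one signal value for each gene in each library, which the labels call DESeq2-normalised counts. Per the submitters' processing notes, the genome was mm10 and the tools, listed without roles, were DESeq2 1.34.0, Salmon 0.14.1 and STAR 2.6.1d. Whole reads could not be recovered: between 3.44% and 4.31% of values of 100 to 1000 reads were whole within 0.02, so no count model was run. With the most common low value of each library taken as 1 read, an estimated 13571210 to 14918661 reads underlie each library. Since so few values were whole in this unit, the estimate is rough. Genes with a mean of at least 10 entered limma 3.58.1 (R 4.3.3) on the log2(value + 1) scale, with a variance trend. Tests were two-sided, with Benjamini-Hochberg adjustment over 13199 genes and a threshold of 0.05. The log2(value + 1) scale understates the change of low genes. The procedure was tested on simulated data. That test required few calls among unchanged genes and recovery only of changes far larger than those of the members. It was no check on changes of the members' size. Members and lists were chosen with earlier results of these data known. Values of every library are given for members with p under 0.05 or without overlap, for the extremes of level and for 7 preset genes; the length used was chosen after seeing the data. Of other pathway genes up to 3 per list with the smallest p under 0.05, or the most abundant, are named. Lengths and positions are from GENCODE on GRCm38, promoters from RefSeq. Alternatives were pseudocounts, filters, scalings, variance priors, voom weights, a replicate block and leaving out each library.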

Additional observations from a re-analysis of the deposited data

How the results depend on the processing

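Over 17 alternative settings 0 of the 36 members passed the threshold, with a lowest adjusted p of 0.330. The median log2 change of the members was between -0.0084 and -0.0062 in the 11 settings that kept all libraries; on leaving out each library it ran from -0.038 (without control replicate 2) to 0.0035 (without control replicate 1). Over all tested genes 37 passed; with a single prior variance 2 did, and on leaving out each library between 20 (without Calr KO replicate 1) and 34; the cause was not tested. Leaving out Calr KO replicate 3 gave 21, and leaving out control replicate 2 or 3 gave 22. Of the 36 members 22 kept their sign in all settings. With quantile normalisation Ctsl was -0.016 and Arsa -0.010, and with equal column totals Arsa was -0.00029. On leaving out each library the log2 change spanned 0 in the following genes: Arsa from -0.022 to 0.025, Atg5 from -0.035 to 0.058, Ccpg1 from -0.045 to 0.083, Cd63 from -0.0030 to 0.049, Ctsa from -0.061 to 0.056, Ctsb from -0.0035 to 0.026, Ctsd from -0.051 to 0.013, Gabarapl1 from -0.027 to 0.014, Grn from -0.024 to 0.012, Hexa from -0.044 to 0.040, Lamp2 from -0.0059 to 0.052, M6pr from -0.035 to 0.051, Rtn3 from -0.0080 to 0.028, Scarb2 from -0.0045 to 0.093 and Sqstm1 from -0.072 to 0.0032.

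With the replicate block 26 genes and 0 members passed. Same-numbered libraries did not deviate together (correlations of -0.06, -0.01 and 0.0014), so the numbers are not taken to pair the samples. Intervals were widest for Tfeb and Atg7, the members with the lowest counts; the part of depth in this was not tested.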
